A study of Mus musculus with 8 samples.

Results

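Metallothioneins and the genes through which cells read and export zinc were followed in the RNA of mouse hematopoietic stem cells (HSCs) after deletion of Mitol. The set has 4 members out of 22065 named genes in the count table. Mt1 was chosen by its measured rise, the fold change between MitolΔ/Δ and control HSCs in these same libraries, so its difference between the groups is given as a description, with no test. Mt2, Mtf1 and Slc30a1 were added for what they are known to do. All 4 are in the count table, and 3 of them passed the filter on low counts that left 16444 genes for testing; Mt2 did not.

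Metallothioneins are small, cysteine-rich proteins that bind zinc and copper and buffer the free level of these metals. Their genes are switched on by MTF1, a zinc-finger transcription factor that itself senses zinc and binds short metal response elements in the promoters of Mt1, Mt2 and Slc30a1, which encodes the zinc exporter ZnT1 of the plasma membrane. Glucocorticoids and oxidative stress are also known to raise metallothionein mRNA. In the text below, zinc importers are the Slc39 (ZIP) family, which move zinc into the cytosol, and exporters are the Slc30 (ZnT) family, which move it out of the cytosol or into organelles.

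The study compared 4 libraries of MitolΔ/Δ HSCs with 4 of control HSCs, each from 100 cells sorted from bone marrow of C57BL/6 mice aged 8 to 10 weeks. MitolΔ/Δ mice carried Mitol Flox/Flox and MX1-cre, which is switched on by interferon and removes the floxed allele in blood-forming cells but is not specific to HSCs. Control mice carried Mitol Flox/Flox without the cre, and both groups had received Poly:IC, an inducer of interferon, 1 week before. The sort took CD150+, CD48-, EPCR+ and lineage-negative cells. The paper's gate for long-term HSCs also requires c-Kit, the product of Kit. The labels do not say whether each library came from a separate mouse, so p-values measure the spread between these libraries, which may be in part technical.

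Counts on named genes summed to between 7214935 and 12398138 per library. The targeted gene, Marchf5 (which encodes MITOL), had 276, 232, 308.5 and 281 normalized counts in MitolΔ/Δ replicates 1 to 4 against 299, 312, 333.5 and 262 in control replicates 1 to 4, a log2 fold change of -0.15 with a standard error (SE) of 0.13 (edgeR, adjusted p = 0.498; 1 of 4 MitolΔ/Δ libraries below every control), so a count over the whole gene did not tell the labelled groups apart. The paper called mice MitolΔ/Δ once PCR had shown the deletion, which a whole-gene count does not test. A normalized count is the raw count scaled by the library's DESeq2 size factor, and a fold change is MitolΔ/Δ over control. All 10 HSC markers on the list were detected in every library. At an adjusted p under 0.05, 3 of the 10 were lower and 0 were higher in MitolΔ/Δ HSCs. Over all tested genes, 3.75% were lower and 4.68% higher. Kit and Hlf were among the lower markers, with log2 fold changes of -0.75 and -0.79 (edgeR, adjusted p = 0.00705 and 0.00381, with 4 of 4 libraries below every control for both). Slamf1, the gene of the CD150 antigen used in the sort, had a log2 fold change of 0.56 (edgeR, adjusted p = 0.0501; 4 of 4 above every control), and Ly6a, which encodes SCA-1, of 0.76 (adjusted p = 0.0605). Cd48, the gene of an antigen that the sort excluded, was at 22.2 to 63.4 normalized counts in MitolΔ/Δ and 4.49 to 21.7 in control libraries (edgeR, log2 fold change 1.72, adjusted p = 0.0450; 4 of 4 above every control). MitolΔ/Δ replicates 3 and 4 stood apart from replicates 1 and 2 in several genes described below, and values without them, a choice made after the values were seen, are given where they differ. RNA was pooled from 100 cells, so a change in how many cells express a gene and a change in RNA per cell cannot be told apart.

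Metal response elements have the core TGCACNC or TGCGCNC, where N is any base. These cores were searched on both strands in the 500 bases before the start codon of each member, in GRCm39 (the same assembly as mm39) with GENCODE vM39. Mt1 held 5 matches, Mt2 held 7, Slc30a1 held 2 and Mtf1 held 0; none of the 14 matches overlapped another. Over 21650 coding genes, 35.8% had at least 1 match, 12.4% at least 2, 0.480% at least 5 and 0.0462% at least 7. The 5 matches of Mt1, the 3 of Mt2 that lie nearest its start codon and both of Slc30a1 are shown because they are the letters that set these genes apart from Mtf1, with the core in capitals and 4 bases on each side; all genes lie on the plus strand and all lines are read on it, so a core on the minus strand appears as its reverse complement.
Mt1, chr8:94905690-94905704, plus-strand core, before the transcript: gctgTGCACACtggc
Mt1, chr8:94905715-94905729, plus-strand core, 5′ UTR exon: gctcTGCACTCcgcc
Mt1, chr8:94905733-94905747, plus-strand core, 5′ UTR exon: aaagTGCGCTCggct
Mt1, chr8:94905797-94905811, minus-strand core, 5′ UTR exon: tgctGGGTGCAaacc
Mt1, chr8:94905811-94905825, plus-strand core, 5′ UTR exon: ccttTGCGCCCggac
Mt2, chr8:94899300-94899314, minus-strand core, 5′ UTR exon: gggcGTGTGCAggcg
Mt2, chr8:94899319-94899333, minus-strand core, 5′ UTR exon: gggcGCGTGCAtggt
Mt2, chr8:94899353-94899367, plus-strand core, 5′ UTR exon: ctttTGCGCTCgacc
Slc30a1, chr1:191638846-191638860, minus-strand core, 5′ UTR exon: ttccGAGTGCAaagc
Slc30a1, chr1:191638919-191638933, minus-strand core, 5′ UTR exon: ggccGAGCGCAgtcg

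The exon labels follow the canonical GENCODE transcript and do not show where transcription starts in these cells. With a start further downstream, matches labelled as 5′ UTR would lie before the transcript, in the promoter. In the RefSeq promoter windows of 300 bases, which use the older assembly GRCm38.p6 and were found for all 4 members, the counts were 3 for Mt1, 4 for Mt2, 2 for Slc30a1 and 0 for Mtf1, where 1.97% of 32851 windows held at least 3 and 0.517% at least 4. A match is a description of the sequence, and 0 matches say only that these letters are not in the window.

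Mt1 (ENSMUSG00000031765, chromosome 8, 94905710 to 94906955, plus strand) had 64.2, 84.2, 242 and 334 normalized counts in MitolΔ/Δ replicates 1 to 4. Control replicates 1 to 4 had 14.5, 20.2, 32.0 and 30.5. Every MitolΔ/Δ library lay above every control library, and the lowest MitolΔ/Δ value was 2.00 times the highest control value. The means were 181 ± 129 and 24.3 ± 8.39 (SD, n = 4), a log2 fold change of 2.85 with an SE of 0.51. Only 11 of the 16444 tested genes had a larger log2 fold change, 7 of them among the 12013 tested genes with a mean of at least 50 normalized counts. These are the values by which Mt1 was picked. Among tested genes, 8.17% had MitolΔ/Δ values all above and 7.18% all below the control values, and 4.68% were called higher and 3.75% lower at an adjusted p under 0.05 (8.43% in either direction).

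The MitolΔ/Δ libraries differed more among themselves than the control libraries did. Replicates 3 and 4 held 264 and 316 raw Mt1 counts and replicates 1 and 2 held 82 and 81, so the highest normalized value was 5.21 times the lowest, against 2.21 times among controls. With replicates 3 and 4 left out, the log2 fold change was 1.58, and the mean of replicates 1 and 2 was 3.05 times the control mean. Leaving out single libraries gave log2 fold changes from 2.39, without MitolΔ/Δ replicate 4, to 3.13, without MitolΔ/Δ replicate 1.

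**Figure D1:**
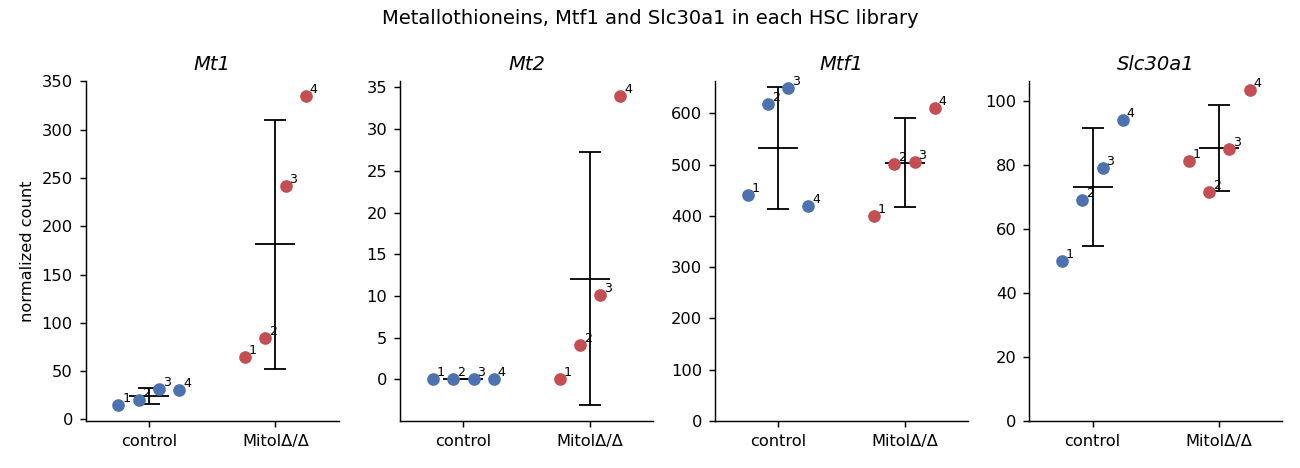
Normalized counts (y axes, a scale for each gene) of Mt1, Mt2, Mtf1 and Slc30a1 in the 4 control and 4 MitolΔ/Δ libraries; points are libraries with their replicate number, horizontal marks are means and bars are SD. For Mt1 the MitolΔ/Δ points (64.2 to 334) lie above the control points (14.5 to 32.0), for Mt2 only MitolΔ/Δ replicates 2 to 4 are above 0, and for Mtf1 and Slc30a1 the groups overlap.

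Mt2 (ENSMUSG00000031762, chromosome 8, 94898819 to 94900207, plus strand), the partner gene that is usually induced along with Mt1, was near the limit of detection. Raw counts were 0, 4, 11 and 32 in MitolΔ/Δ replicates 1 to 4 and 0 in each of the 4 control libraries. In a library, 3 counts, the limit that a count of 0 allows, correspond to 0.242 to 0.416 CPM (counts scaled to a common library total). The groups overlapped, since MitolΔ/Δ replicate 1 also had 0 counts. Set against 3 counts over all control libraries, the pooled MitolΔ/Δ count of 47 was 14-fold higher. Without MitolΔ/Δ replicate 4, which held 32 of the 47 counts, it was 5.73-fold higher. Without replicates 3 and 4, which left 4 counts, it was 2.26-fold higher (edgeR without the filter, adjusted p = 0.277). These folds allow for the zeros in controls but not for counting error or spread in the MitolΔ/Δ libraries, so they are not bounds. Mt2 was removed by the filter on low counts, and in a fit of all genes without that filter it did not pass the threshold (edgeR, adjusted p = 0.0609; 3 of 4 MitolΔ/Δ libraries above every control; it passed without MitolΔ/Δ replicate 1, adjusted p = 0.0347).

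The share of Mt2 among metallothionein counts varied between libraries. Mt2 made up 47 of 790 metallothionein counts in MitolΔ/Δ libraries, or 5.95% (95% exact binomial interval 4.40 to 7.83%). Without replicate 4, it was 15 of 442, or 3.39% (1.91 to 5.54%). In single MitolΔ/Δ libraries the share was 0 of 82, 4 of 85 (4.71%, 1.30 to 11.6%), 11 of 275 (4.00%, 2.01 to 7.04%) and 32 of 348 (9.20%, 6.37 to 12.7%) in replicates 1 to 4. In replicate 1, a count of 0 allows a share of up to 3.66% by the limit of 3 counts (exact upper bound 4.40%). In control libraries it was 0 of 98, which allows a share of up to 3.06% by that limit (exact upper bound 3.69%), so the gap between the groups in this share rests on MitolΔ/Δ replicate 4. These intervals cover counting error only, since the reads carry no molecular identifiers and copies of 1 molecule cannot be recognised. Single control libraries, with 11 to 34 Mt1 counts, allow shares of up to 8.82 to 27.3%, so no single one could show that the share was below 5.95%.

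Mt2 lies head to tail with Mt1 and overlaps another gene. The lncRNA gene Gm45774 (chromosome 8, 94892504 to 94900040, minus strand) covers 581 of the 748 exon bases of the canonical Mt2 transcript, or 77.7%, and 362 of the 674 windows of 75 bases in that transcript also lie in transcripts of another gene. Gm45774 had 9 and 8 counts in MitolΔ/Δ replicates 3 and 4 and 0 in the other 6 libraries. The library kit does not mark strand, so reads within the overlap of Mt2 and Gm45774 cannot be told apart, and how they were assigned is not given in the sources used here. Counted together, the pair had 0, 4, 20 and 40 counts in MitolΔ/Δ replicates 1 to 4 and 0 in controls. None of the 688 windows of 75 bases in the Mt1 transcript occurred in a transcript of another gene or in Mt2, and Mt1 exons overlapped no other gene. Reads of this length could thus be assigned to Mt1 alone, while the level of Mt2 is uncertain.

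**Figure D2:**
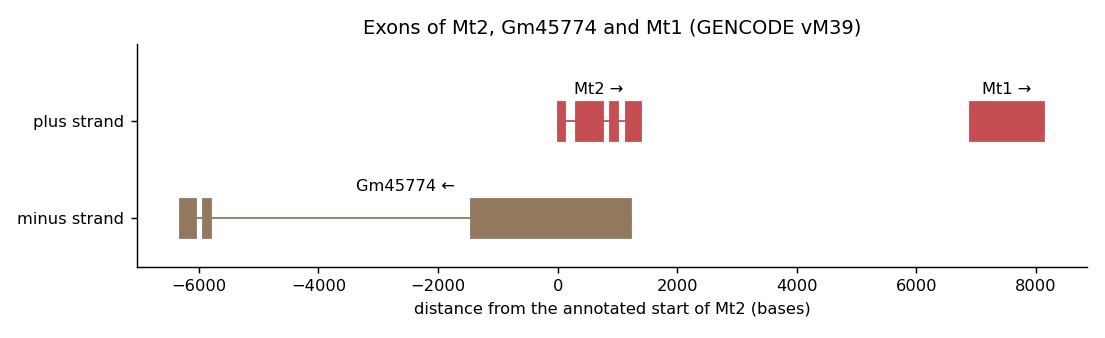
Annotated exons (boxes) of Mt2 and Mt1 on the plus strand and of Gm45774 on the minus strand, against the distance in bases from the annotated start of Mt2; thin lines join exons and arrows give the direction of transcription. A long exon of Gm45774 runs from -1443 to 1221 and covers most of Mt2, and Mt1 starts at 6891, clear of both.

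Of the other metallothioneins, Mt3, known mainly from brain, had 3, 1, 1 and 3 raw counts in MitolΔ/Δ and 1, 2, 0 and 0 in control replicates 1 to 4, at or under the limit in every library, and no fold is given. Mt4, a gene of squamous epithelium, has no row in the table.

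Mtf1 (ENSMUSG00000028890, chromosome 4, 124695897 to 124743593, plus strand), the zinc-sensing transcription factor that drives metallothionein genes, was not past the threshold. Its normalized counts were 399, 500.9, 504 and 610.5 in MitolΔ/Δ replicates 1 to 4 and 440.5, 618, 649 and 419 in control replicates 1 to 4. The groups overlapped over nearly their whole range. The log2 fold change was -0.10 with an SE of 0.17 (edgeR, adjusted p = 0.756; 1 of 4 libraries below every control), and the fold change within 2 SE ran from 0.740 to 1.18. Its sign turned without MitolΔ/Δ replicate 1 or without control replicate 3.

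Slc30a1 (ENSMUSG00000037434, chromosome 1, 191638808 to 191645361, plus strand), which encodes the exporter ZnT1, was not past the threshold either. It had 81.4, 71.7, 85.1 and 104 normalized counts in MitolΔ/Δ replicates 1 to 4 and 50.1, 69.2, 79.1 and 94.3 in control replicates 1 to 4. Only MitolΔ/Δ replicate 4, which also had the most Mt1, lay above every control. The log2 fold change was 0.20 with an SE of 0.23 (edgeR, adjusted p = 0.634; 1 of 4 libraries above every control), and the fold change within 2 SE ran from 0.831 to 1.58. Annotated exons of genes on the other strand cover 9.97% of the Mtf1 and 8.86% of the Slc30a1 canonical exon bases, and reads there could not be assigned by strand.

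To compare levels between genes, CPM were divided by the length of the canonical transcript in kilobases. This model has 762 bases for Mt1 and 7636 for Mtf1, and other transcript lengths could change the levels and their order. On this scale, control HSCs held the most Mtf1, at 7.44 ± 1.64, then Mt1 at 3.41 ± 1.19 and Slc30a1 at 1.48 ± 0.380 (SD, n = 4). The ranges of neighbours in that order did not overlap, from 5.90 to 9.08 for Mtf1, from 2.03 to 4.49 for Mt1 and from 1.01 to 1.92 for Slc30a1. In MitolΔ/Δ HSCs, Mt1 was first at 25.2 ± 18.0, with Mtf1 at 6.96 ± 1.21, Slc30a1 at 1.71 ± 0.274 and Mt2 at 1.70 ± 2.14. Mt1, at 8.83 to 46.4, lay above Mtf1, at 5.48 to 8.45, in every MitolΔ/Δ library, although their group ranges nearly met, and the levels of Slc30a1 and Mt2 overlapped. In level per kilobase, the mean of Mt1 was thus 0.458 times that of Mtf1 in control HSCs and 3.62 times it in MitolΔ/Δ HSCs.

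No tested zinc exporter, Slc30a1 among them, moved past the threshold with these libraries. Of 11 exporter and zinc-out genes on the list, 9 are in the table and 6 were tested. EdgeR, limma-voom and DESeq2 called 0, where edgeR called 8.43% of all tested genes. With 6 genes, 0 calls cannot be told from that share. In edgeR 1 had an unadjusted p under 0.05. Slc30a4 and Slc30a5 had all 4 MitolΔ/Δ libraries above every control, as did 8.17% of all tested genes. Their log2 fold changes were 0.33 and 0.07 (edgeR, adjusted p = 0.155 and 0.628). The median log2 fold change of the 6 was 0.13, against -0.02 over all tested genes. The most abundant per length was Slc30a9, which encodes a transporter of mitochondrial zinc, at 14.8 ± 1.79 CPM per kilobase in MitolΔ/Δ and 15.5 ± 0.946 in control HSCs (edgeR, log2 fold change -0.06, SE 0.10, adjusted p = 0.744; 1 of 4 libraries below every control).

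Zinc importers differed in both directions. Of 14 Slc39 genes, all in the table, 13 were tested, and 2 were higher and 1 was lower in MitolΔ/Δ HSCs, that is 3 of 13, where 8.43% of all tested genes were called; the median log2 fold change was 0.17. Slc39a1 encodes the plasma membrane importer ZIP1 and was also the most abundant of the list per length. It had 855, 846, 1033 and 982 normalized counts in MitolΔ/Δ replicates 1 to 4 and 562, 600.1, 569.9 and 523.5 in control replicates 1 to 4. The groups did not overlap, and the log2 fold change was 0.70 with an SE of 0.10 (edgeR, adjusted p = 0.00455; 4 of 4 above every control). MitolΔ/Δ replicates 3 and 4 were again the highest, but by a far smaller margin than for Mt1.

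Slc39a8 encodes ZIP8, an importer of zinc, iron and manganese, and had 235, 252.5, 178 and 299 normalized counts in MitolΔ/Δ replicates 1 to 4 against 137, 118, 122.5 and 82.6 in control replicates 1 to 4. The groups did not overlap, with a log2 fold change of 1.05 and an SE of 0.20 (edgeR, adjusted p = 0.0134; 4 of 4 above every control). Slc39a13 encodes ZIP13, which releases zinc from intracellular vesicles, and was lower, with 358.5, 325, 311 and 324 normalized counts in MitolΔ/Δ against 516, 497, 525 and 498 in control replicates 1 to 4. Its log2 fold change was -0.64 with an SE of 0.10 (edgeR, adjusted p = 0.00571; 4 of 4 below every control). These 3 calls held with each library left out in turn. Slc39a4, which encodes the importer ZIP4 and is named here because the setting decided its call, had a log2 fold change of -1.10 (edgeR, adjusted p = 0.0769, with 2 of 4 libraries below every control). It passed with DESeq2 (adjusted p = 0.0457). Slc39a9 also passed with DESeq2 and had a log2 fold change of 0.25 (edgeR, adjusted p = 0.0951, with 4 of 4 libraries above every control).

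**Figure D3:**
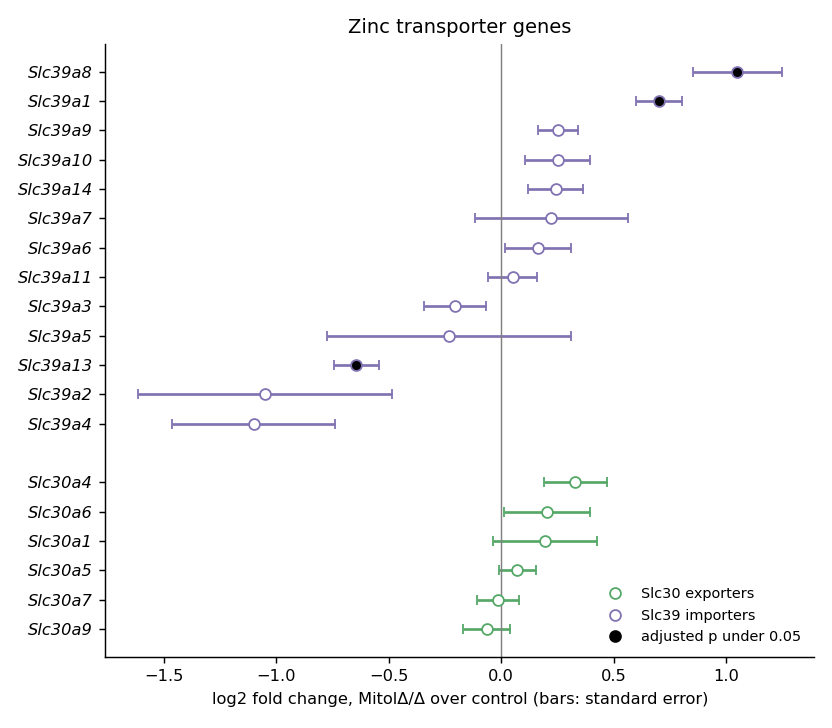
Log2 fold change (x axis, MitolΔ/Δ over control) of the 6 tested Slc30 exporters and 13 tested Slc39 importers (y axis); points are edgeR estimates, bars are SE and black centres mark an adjusted p under 0.05. Slc39a8 (1.05), Slc39a1 (0.70) and Slc39a13 (-0.64) are past the threshold, and all exporters lie between -0.06 and 0.33.

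Metallothioneins also bind copper, so genes of copper uptake, chaperoning and export were counted. Of 12 on the list 11 were tested, and 0 were past the threshold by edgeR and by limma-voom, where edgeR called 8.43% of all tested genes. With 11 genes, 0 calls cannot be told from that share. In edgeR 2 had an unadjusted p under 0.05, and the median log2 fold change was 0.10. DESeq2 called 1, Sod1, the copper- and zinc-dependent superoxide dismutase, which had a log2 fold change of 0.38 in edgeR (adjusted p = 0.0540; 4 of 4 above every control).

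Of 12 genes on a list of the NRF2 oxidative and metal stress program, all tested, 2 were higher and 1 was lower in MitolΔ/Δ HSCs. Among all tested genes, 4.68% were called higher and 3.75% lower. The list includes Nfe2l2, which encodes NRF2 itself, and Keap1, the gene of its inhibitor. Its median log2 fold change was 0.05. Hmox1, which encodes the heme-degrading enzyme heme oxygenase 1, had 282, 408, 263 and 195 normalized counts in MitolΔ/Δ replicates 1 to 4 and 56.7, 73.4, 90.4 and 164 in control replicates 1 to 4. All MitolΔ/Δ libraries lay above all controls, but the highest values were in replicates 2 and 1, not in those with the most Mt1. Its log2 fold change was 1.54 with an SE of 0.31 (edgeR, adjusted p = 0.0158; 4 of 4 above every control), and it lost its call without control replicate 2 (adjusted p = 0.0548). Txn1, which encodes thioredoxin, was higher by a log2 fold change of 0.68 (edgeR, adjusted p = 0.0345; 3 of 4 above every control), a call lost without any of MitolΔ/Δ replicates 1 and 2 and control replicates 2, 3 and 4 (adjusted p from 0.0800 to 0.0969). Osgin1, named for its induction by oxidative stress, was lower, at 102 to 112 normalized counts in MitolΔ/Δ and 169 to 254 in control libraries (edgeR, log2 fold change -1.10, adjusted p = 0.00568; 4 of 4 below every control). Gclm, a subunit gene of the enzyme that begins glutathione synthesis, is named because the setting decided its call. It had a log2 fold change of 0.40 (edgeR, adjusted p = 0.0504, with 4 of 4 above every control) and an adjusted p of 0.0125 with DESeq2. Gsr, also called by DESeq2, had a log2 fold change of 0.42 (edgeR, adjusted p = 0.0662).

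Glucocorticoids raise metallothionein mRNA in many tissues, and 12 genes of the glucocorticoid response were tested. EdgeR and limma-voom called 0 of them, where edgeR called 8.43% of all tested genes. With 12 genes, 0 calls cannot be told from that share. In edgeR 3 had an unadjusted p under 0.05, and the median log2 fold change was 0.02. DESeq2 called 1, Cebpd, a transcription factor gene with 36.0, 53.0, 89.7 and 117 normalized counts in MitolΔ/Δ replicates 1 to 4 and 29.0, 29.8, 30.1 and 36.8 in control replicates 1 to 4 (edgeR, log2 fold change 1.21, SE 0.35, adjusted p = 0.0545; 3 of 4 above every control). As for Mt1, MitolΔ/Δ replicates 3 and 4 were the highest, and without them the log2 fold change was 0.49 (edgeR, adjusted p = 0.382).

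Heat shock genes, which share inducers with metallothioneins, were counted in the same way. Of 11 on the list, 9 were tested, 4 were past the threshold and higher and 0 lower, against 4.68% of all tested genes called higher, and all 9 estimates were above 0 with a median log2 fold change of 0.76. The 4 were Hsp90aa1 (cytosolic chaperone HSP90), Hspa8 (constitutive HSC70), and Hspd1 and Hspe1 (the mitochondrial chaperonin pair HSP60 and HSP10), with log2 fold changes of 0.86, 0.76, 0.70 and 0.82 (edgeR, adjusted p = 0.00963, 0.0387, 0.0288 and 0.0368; 4, 4, 3 and 4 of 4 above every control). Hsp90aa1 held its call with each library left out, and the count fell to 1, Hsp90aa1, without MitolΔ/Δ replicate 2, MitolΔ/Δ replicate 3, control replicate 2 or control replicate 4, and to 2 without MitolΔ/Δ replicate 1. Without MitolΔ/Δ replicates 3 and 4, Hspa8 lost its call at a log2 fold change of 0.48 (edgeR, adjusted p = 0.137). The inducible, near-identical pair Hspa1a and Hspa1b, named after their values were seen, stood out in MitolΔ/Δ replicate 3, with 114 and 402 normalized counts. Hspa1b was between 0.898 and 55 in the other 7 libraries, and reads may be split between the pair.

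MitolΔ/Δ replicates 3 and 4, with the most Mt1, also had the most RNA of some, but not all, listed genes of other cell types. Of 12 erythroid markers, all in the table, 7 were tested and 2 were called higher, Tfrc and Hbb-bt, where 4.68% of all tested genes were. Their summed level ran from 616 to 921 CPM in MitolΔ/Δ and from 564 to 764 in control libraries, with the highest sum in MitolΔ/Δ replicate 3. Klf1, an erythroid transcription factor gene, had 10.2, 21.8, 92.5 and 103 normalized counts in MitolΔ/Δ replicates 1 to 4 and 1.32, 2.13, 17.9 and 19.8 in control replicates 1 to 4. Car1 was at 523 in MitolΔ/Δ replicate 4, at 6.41 in replicate 3 and at 52.8 or less elsewhere. Car2 went the other way, at 3642 and 3631 in MitolΔ/Δ replicates 3 and 4 and 3885 to 6021 in controls (edgeR, log2 fold change -0.22, adjusted p = 0.316). Alas2 was not past the threshold (edgeR, log2 fold change 0.07, adjusted p = 0.858). Of the 7 tested, 6 had a log2 fold change above 0. Ermap, not tested, had 0, 19.7, 138 and 249 normalized counts in MitolΔ/Δ replicates 1 to 4 and at most 9.58 in controls. Epor had 86.9, 111, 164 and 192 against 70.6 to 113 in controls. Gata1, not on this list and named after its values were seen, had 114, 131, 297 and 305 in these replicates. It had 6.29 to 31.9 in controls (edgeR, log2 fold change 3.3, adjusted p = 0.00381, with 4 of 4 above every control).

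Of 7 megakaryocyte markers 6 are in the table and 5 were tested, with 0 called higher and 1, Pf4, called lower. Over all tested genes, 4.68% were called higher and 3.75% lower. The summed level was 258 to 550 CPM in MitolΔ/Δ and 349 to 526 in control libraries. Within this list Itga2b, the gene of the platelet integrin CD41, was at 286.5, 351, 1111 and 1440.0 normalized counts in MitolΔ/Δ replicates 1 to 4 and at 519 to 589 in controls. Replicates 3 and 4 were thus above every control and replicates 1 and 2 below every control, while Mt1 was above the controls in all 4. Of 10 neutrophil markers 8 are in the table and 2 were tested. EdgeR and limma-voom called 0, where edgeR called 8.43% of all tested genes, and 1 had an unadjusted p under 0.05. DESeq2 called 2 of the list (Prtn3 higher and S100a8 lower). The summed level of neutrophil markers was 50.9 to 108 CPM in MitolΔ/Δ and 43.3 to 65.7 in control libraries. S100a8 and S100a9 were at 0 in MitolΔ/Δ replicates 2 to 4.

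In the remaining lists, edgeR called Nkg7, a gene of cytotoxic lymphocytes, higher (log2 fold change 1.05, adjusted p = 0.0144) and Gata2, which HSCs also express, lower (log2 fold change -0.39, adjusted p = 0.0287). Monocyte and macrophage markers (7 of 9 in the table) summed to 172 to 194 CPM in MitolΔ/Δ and 175 to 205 in control libraries. B-lineage markers (4 of 8) summed to 14.4 to 15.8 and 15.6 to 21.8, T and NK markers (4 of 9) to 27.2 to 45.0 and 18.1 to 24.3, and mast cell and basophil markers (2 of 8) to 346 to 458 and 489 to 517. All 12 cycling genes were called higher, against 4.68% of all tested genes, with a median log2 fold change of 1.60. Their summed level was 1483, 1439, 1182 and 704 CPM in MitolΔ/Δ replicates 1 to 4 and 325 to 721 in controls, so it was lowest in the MitolΔ/Δ library with the most Mt1. What part these cells or the cell cycle have in the Mt1 values was not tested.

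**Figure D4:**
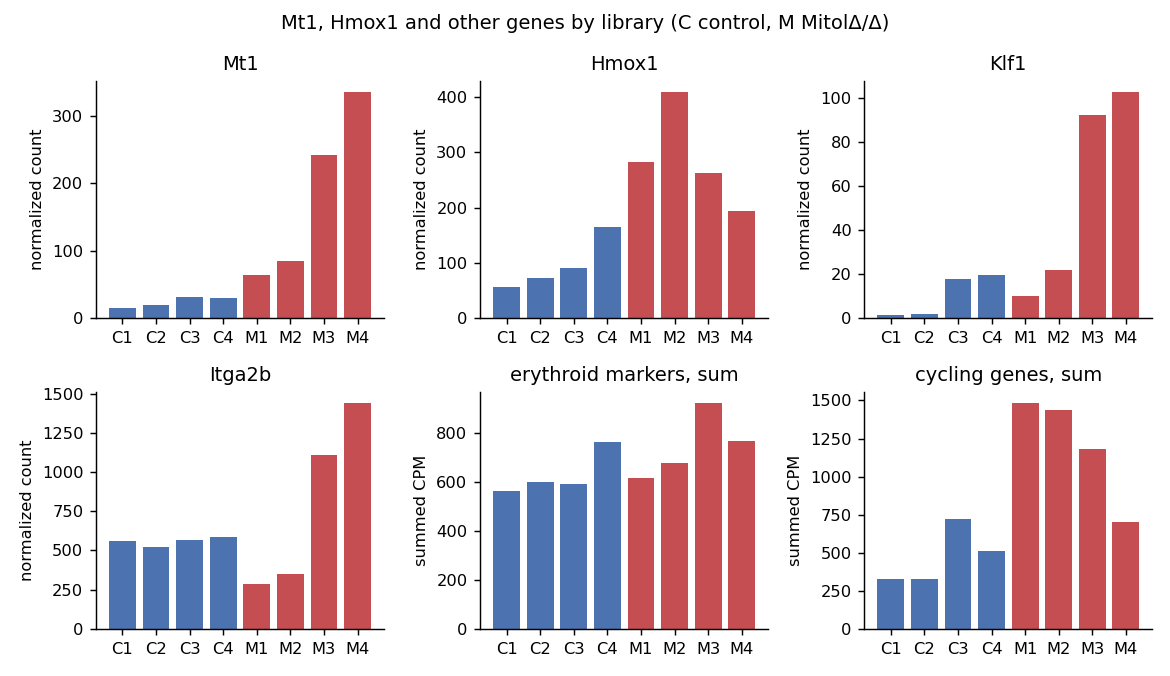
Values per library (x axis, C1 to C4 control and M1 to M4 MitolΔ/Δ replicates 1 to 4) of Mt1, Hmox1, Klf1 and Itga2b in normalized counts and of the summed erythroid markers and cycling genes in CPM (y axes, all from 0). Mt1, Klf1 and Itga2b are highest in M3 and M4, Hmox1 is highest in M2 (408) and the cycling genes are highest in M1 and M2.

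Genes with a pattern like that of Mt1 were found by the mean absolute difference, over the 8 libraries, between log2 CPM values that were each centred on their own mean, among the 12013 tested genes with a mean of at least 50 normalized counts. The closest 5 were Muc1 (a membrane mucin, 0.38), Clu (clusterin, a secreted chaperone, 0.43), Abca4 (a retinoid-transporting flippase, 0.45), Vldlr (a lipoprotein receptor, 0.48) and Gadd45g (a stress-response gene of the GADD45 family, 0.51). Each shared with Mt1 its highest values in MitolΔ/Δ replicates 3 and 4, among them 119.9 and 248 normalized counts for Muc1 against 15.8, 13.8, 32.0 and 39.5 in control replicates 1 to 4. For Mt2, where zeros make the measure coarse, the closest were Vldlr (0.44), Gadd45g (0.44), Mfsd2b (a sphingosine-1-phosphate transporter of red cells and platelets, 0.48), Mt1 (0.50) and Ffar2 (a receptor for short-chain fatty acids, 0.50). These genes were chosen for their likeness, so it is not tested, and all values come from the same 8 libraries.

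**Figure D5:**
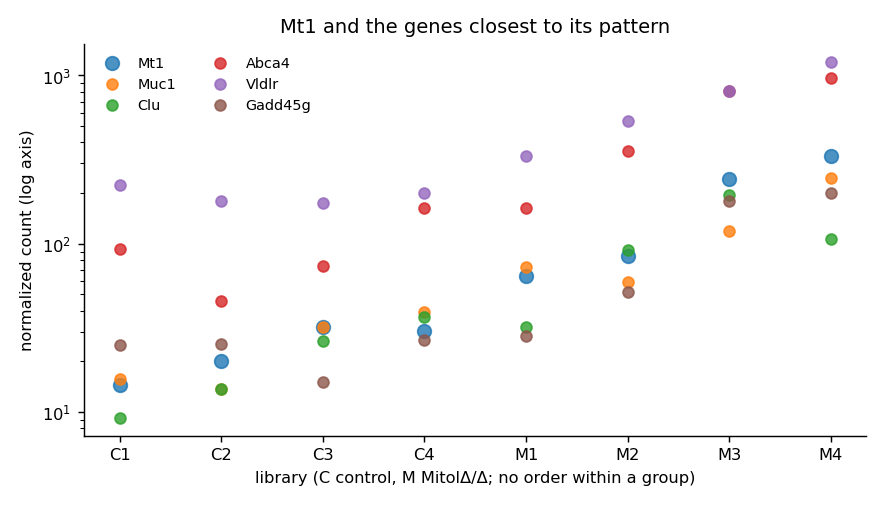
Normalized counts (y axis, log scale) of Mt1 and the 5 genes closest to its pattern in each library (x axis, C1 to C4 control and M1 to M4 MitolΔ/Δ; replicates have no order). Each gene is at its highest values in M3 and M4, and Mt1 runs from 14.5 in C1 to 334 in M4.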

How the data were processed

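RNA-seq libraries from 100 sorted HSCs were made with Nextera XT and read as single-end reads of 75 bp. The authors aligned reads with STAR to mm39, merged files with SAMtools, assigned them to genes with Subread, and the table they deposited holds raw counts without normalization. The annotation and strand setting are not given in the sources used here. The table holds 23094 rows with at least 11 counts each over the 8 libraries. Rows without a symbol, 1029 in all and 0.335 to 0.467% of a library's counts, were left out.

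Counts were tested with edgeR (version 4.0.16; TMM, default expression filter, quasi-likelihood test, condition as the only term, Benjamini-Hochberg adjustment over 16444 genes, threshold 0.05). The filter removed Mt2, which was therefore taken from the same fit without it. Log2 CPM used a prior count of 2. Alternatives were DESeq2 (version 1.42.0) size factors and Wald test, limma-voom (limma version 3.58.1) and no filter. The replicate number as a block, Mt1 and Mt2 summed and each library left out were also run. Leaving out MitolΔ/Δ replicates 3 and 4 and the fold of Mt2 against 3 control counts were chosen after seeing the data. In simulated counts of this comparison edgeR recovered 58% of genes changed by a log2 of 1 and 93% of those changed by 2 among 16125 genes, with 2.58% false calls. The simulation drew each gene independently and changed only genes above a minimum level. It therefore does not cover differences that many genes share between replicates, or low counts such as those of Mt2.

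The members and gene lists were chosen with earlier results of these data known. Named genes were the members and other metallothioneins, Marchf5, list members past the threshold (at most 4 per list and direction), the most abundant transporter of each list and the 5 genes most like Mt1 and Mt2; others were named after their values were seen. Positions came from GENCODE vM39 and GRCm39.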

Additional observations from a re-analysis of the deposited data

Results flagged for a closer look

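Cebpd, a glucocorticoid-responsive transcription factor gene, had 36.8 normalized counts in control replicate 4, set apart from 29.0 to 30.1 in the other control libraries by 0.855 of the group's range. It was the only value among 20 genes to lie that far from its group of 4 libraries, where chance alone marks about 1 group in 20. The control groups of Mt2 and Gm45774, at 0 in every library, could not be checked in this way.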

How the results depend on the processing

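Mt1 had a log2 fold change above 0 under all 15 alternatives, 2.39 to 3.13 with 1 library left out. It was 2.49 with limma-voom, 2.94 with Mt1 and Mt2 counts summed and 1.58 without MitolΔ/Δ replicates 3 and 4. Mt1 was picked for its rise in these same libraries, so its direction in these refits is not a test of that rise. Slc30a1 and Mtf1 were past the threshold under none of 14 alternatives each, and the log2 fold change of Mtf1 ran from -0.20 to 0.014 over single libraries left out, turning sign at 0.0040 without MitolΔ/Δ replicate 1 and 0.014 without control replicate 3. For Mt2, fitted without the filter, the log2 fold change of 6.61 depends on the prior count; it ran from 5.31 to 6.98 with 1 library left out and passed the threshold without MitolΔ/Δ replicate 1. The fold of Mt2 against 3 control counts was 3.81 on the log2 scale with all libraries. It was 2.52 to 4.32 with 1 library left out and 1.18 without MitolΔ/Δ replicates 3 and 4. DESeq2 gave no adjusted p for Mt2, and limma-voom gave no row for it because it keeps the filter.

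Genes called over all genes numbered 1386 in the edgeR fit, 2315 with DESeq2, 359 (without control replicate 2) to 2501 (without MitolΔ/Δ replicate 4) with 1 library left out and 2422 without MitolΔ/Δ replicates 3 and 4. DESeq2 called 5 zinc importers, 1 copper gene, 5 NRF2 targets and 1 glucocorticoid gene. With 1 library left out, 0 to 1 copper genes, 1 to 4 NRF2 targets, 0 to 1 glucocorticoid genes and 1 to 6 heat shock genes were called, and without MitolΔ/Δ replicates 3 and 4, 1 copper gene (Sod1) and 3 glucocorticoid genes (Tsc22d3, Dusp1 and Zbtb16). Zinc exporters stayed at 0 under all 14. The cause of these differences was not tested.

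The replicate number as a block moved the count over all genes to 1652, gave Mt2 a log2 fold change of 6.64 with an adjusted p of 0.0328 (edgeR) and called 4 zinc importers (Slc39a4 added, adjusted p = 0.0464), 1 copper gene, 5 NRF2 targets and 1 glucocorticoid gene. Same-numbered libraries had correlations of -0.070 to 0.080 and 4 of 8 libraries correlated best with their own number, so the numbers were not taken as pairs. Of 196 refits of 14 other named genes, 163 kept direction and side of the threshold, 24 lost the call, 9 gained it (4 of them for Gclm) and 0 turned direction. The Mt2 share of 5.95% ran from 3.39% (without MitolΔ/Δ replicate 4) to 6.99%. Depth limits Mt3, at 3 counts or fewer in every library, and Mt2, at 0 to 4 counts in 6 of 8.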

Other observations

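Ly6a, which encodes the stem cell antigen SCA-1, had 574, 689, 1078 and 1356 normalized counts in MitolΔ/Δ replicates 1 to 4 and 463 to 634 in control libraries, with its highest values in the replicates that also had the most Mt1 (edgeR, log2 fold change 0.76, adjusted p = 0.0605). Zbtb16, a transcription factor gene of the glucocorticoid list, had 56.4, 84.2, 279 and 621 in MitolΔ/Δ replicates 1 to 4 and 187 to 334 in control libraries, so replicates 1 and 2 lay below every control and only replicate 4 above. Slc30a10, a manganese exporter gene of the zinc exporter family, had 22 normalized counts in MitolΔ/Δ replicate 3 and 0 to 1.32 in the other 7 libraries. The adult globin genes Hba-a1 and Hbb-bs had 388 and 1048 normalized counts in MitolΔ/Δ replicate 3 and at most 7.91 and 19.7 in the other 7 libraries. These genes were named after their values were seen.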
